A study of Mus musculus with 12 samples.

Results

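Loss of the transcription factor NFAT5 was examined in haematopoietic stem cells (HSC) at steady state, by comparing 3 arrays of Nfat5-deficient mice (KO) with 3 arrays of control mice (WT). These 6 arrays were chosen by genotype and cell population from 12 in the series. The other 6 hold multipotent progenitors (MPP) of the same mice, by the number shared in the sample titles, with 1 array per mouse and population. KO mice were Nfat5 fl/fl with Vav-Cre, so that their Nfat5 copies are flanked by loxP sites. WT mice were Nfat5 +/+ and carried Vav-Cre too, which means that an effect of Cre itself is shared by both groups. The Vav promoter drives Cre throughout the blood system, so every blood lineage of a KO mouse, and not the stem cells alone, is a target of the deletion. Bone marrow came from untreated mice, of an age that the sources used here leave unstated. HSC were sorted as cells with CD150 and without CD48 in the compartment of lineage-negative cells with Sca-1 and Kit (LSK), and MPP as the converse for CD48 and CD150.

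NFAT5 is a member of the Rel family, related to NF-kB and to the calcineurin-dependent NFAT factors, but calcineurin does not control it. It is best known for the response to hypertonic stress. There it binds the tonicity-responsive element and induces transporters and enzymes that load cells with osmolytes, as well as heat shock chaperones. In immune cells it also acts without osmotic stress, for instance downstream of Toll-like receptors. HSC are rare, mostly quiescent cells that maintain all blood lineages, and they are known to rely on low protein synthesis, restrained mitochondrial activity and signals from their niche.

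Each value below is a log2 intensity, so a difference of 1 is a doubling of signal. KO values are listed in the order of mice 2, 11 and 70, and WT values in the order of mice 3, 12 and 64. Array medians lay between 5.81 and 5.91, and the number of arrays limits the precision. Correlations across genes were 0.921 to 0.944 among KO HSC arrays, 0.942 to 0.944 among WT HSC arrays and 0.920 to 0.950 between them. The KO array of mouse 2 stood apart, with an SD of its deviations from the group mean of 0.400 against 0.323 to 0.348 on the other HSC arrays. The sort labels held on every array. Slamf1, which encodes CD150, read 7.14 to 8.71 on HSC arrays and 5.35 to 6.02 on MPP arrays, and Cd48 read 5.34 to 6.02 against 7.996 to 9.06. Cells of separate mice are the replicates, 3 a side.

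The targeted gene came first as a check of the labels. Nfat5 read 7.85, 7.34 and 7.89 in KO HSC and 8.54, 8.27 and 8.99 in WT HSC. All KO arrays lay below all WT arrays. The KO signal was 53.1% of WT, a difference of -0.91 (SE 0.23; 95% interval -1.43 to -0.40). The exact permutation test (two-sided) gave p = 0.1, the smallest that 3 against 3 arrays allow, and limma gave an adjusted p of 0.566 over all genes. The place of the probe set relative to the deleted exons is unknown from the sources used here, so the remaining signal is no measure of remaining NFAT5.

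Beyond Nfat5, the comparison asked which transcripts of stem cells differ when NFAT5 is absent. By limma, 0 of 14620 genes passed at an adjusted p under 0.05. At an unadjusted p under 0.05 there were 919 genes (6.29% of those tested, with 731 expected at that threshold), of which 508 (3.47%) were higher and 411 (2.81%) lower in KO. This balance turned to 417 higher and 445 lower under scaling to the 75th percentile and to 451 and 470 without WT mouse 64, and was 507 and 497 after a second quantile normalization. KO and WT arrays did not overlap for 1297 genes (8.87%), 753 of them (5.15%) higher and 544 (3.72%) lower in KO. Random labels would separate 3 against 3 arrays in this way with a probability of 0.1, and 8.87% does not exceed that. An absolute difference of at least 1 was reached by 363 genes (2.48%), and 181 of these had groups that did not overlap. The median gene differed by 0.02, with 53.4% of all genes above 0. For the median gene the unadjusted 95% interval reached 0.50 to either side, a factor of 1.42. This is no limit of detection for the adjusted test, which is stricter. None of the 363 genes with an absolute difference of at least 1 passed it, so the lack of passing genes does not exclude larger differences. The individual genes below are therefore values that did not pass the test over all genes. They are the 15 highest-ranked genes in each direction by p among those with an absolute difference of at least 0.5 and groups that did not overlap, so that their separation follows from the choice.

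**Figure D1:**
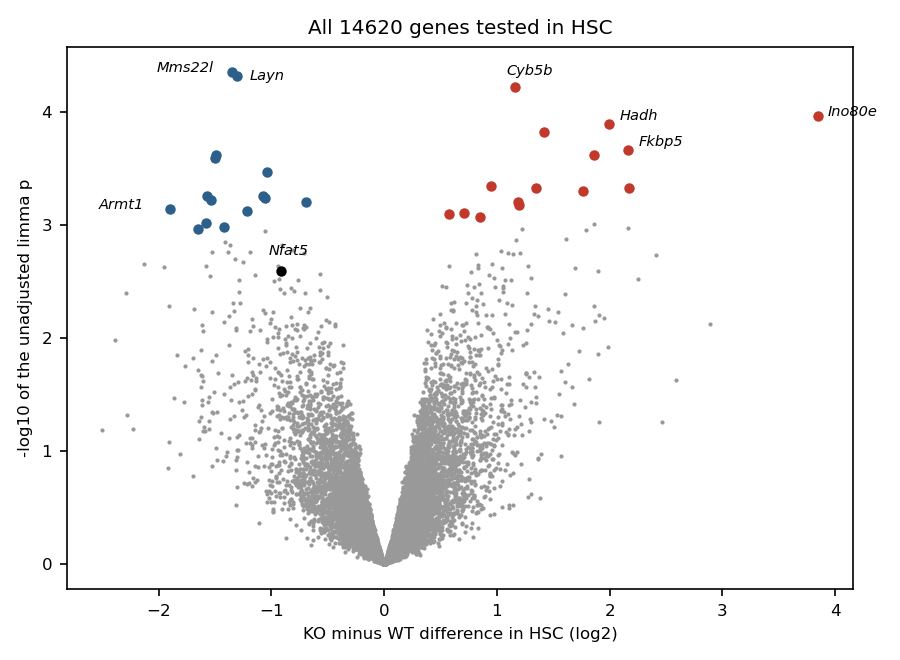
Difference between KO and WT HSC (log2, horizontal axis) against -log10 of the unadjusted limma p (vertical axis) for 14620 genes, each a point. Red and blue points are the 15 genes named in each direction and the black point is Nfat5. Ino80e stands farthest to the right at 3.84, and Mms22l and Layn reach the top on the left.

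Among the genes with higher KO values, several serve chromatin and transcription. The largest difference was that of Ino80e, which encodes a regulatory subunit of the nucleosome remodeller INO80. It read 8.86, 10.50 and 9.94 in KO against 5.72, 7.21 and 4.84 in WT, a difference of 3.84 (SE 0.65). Both groups spread widely, and the highest WT array, that of mouse 12, lay below the lowest KO array, that of mouse 2. Paf1, a core subunit of a complex that travels with RNA polymerase II, read 7.89, 6.39 and 7.17 against 4.93, 5.65 and 5.29 (1.86, SE 0.35). Its lowest KO value, on mouse 11, still lay above the highest WT value. Rnf40, part of the ubiquitin ligase for histone H2B that works with the Paf1 complex, read 6.09, 6.11 and 6.34 against 5.49, 5.48 and 5.44 (0.71, SE 0.15). The groups were tight there. Hirip3, a histone-binding partner of the chaperone HIRA, read 8.13, 7.83 and 7.47 against 7.002, 7.01 and 6.87 (0.85, SE 0.19). Rpp21, a protein of the ribonuclease P that trims transfer RNA, differed by 0.95 (SE 0.19), with 7.83 to 8.17 in KO and 6.80 to 7.40 in WT.

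A second set of genes with higher KO values serves metabolism and protein handling. Hadh encodes the 3-hydroxyacyl-CoA dehydrogenase of short chains in mitochondrial fatty acid oxidation. It read 7.13, 8.22 and 7.83 in KO and 5.63, 5.76 and 5.80 in WT, a difference of 1.99 (SE 0.34). WT arrays were close together, and the lowest KO array lay more than 1 unit above them. Fkbp5, a co-chaperone of steroid receptors whose transcript is induced by glucocorticoids, read 8.84, 8.89 and 8.90 against 6.50, 6.32 and 7.32, a difference of 2.16 (SE 0.40). Here the KO arrays were nearly identical and the WT arrays spread over 1 unit. Edem2, a mannosidase that marks misfolded glycoproteins of the endoplasmic reticulum for degradation, read 7.32, 7.75 and 8.02 against 6.63, 5.69 and 5.48 (1.77, SE 0.36). Cyb5b, the cytochrome b5 of the outer mitochondrial membrane, had the lowest p in this direction (adjusted p = 0.295 by limma). It read 7.17, 6.87 and 6.58 against 5.92, 5.60 and 5.62, a difference of 1.16 (SE 0.18).

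The remaining genes with higher KO values belong to signalling, the cytoskeleton and division. Cish is a feedback inhibitor of cytokine receptors that STAT5 induces. It read 6.73, 7.27 and 7.20 in KO and 5.80, 5.97 and 5.84 in WT (1.20, SE 0.25), with a WT spread far smaller than the gap between groups. Map2k3, a kinase that activates p38, itself an activator of NFAT5 under osmotic stress, read 6.88, 6.09 and 7.09 against 5.64, 5.11 and 5.26 (1.35, SE 0.27). Rassf1, a scaffold of the Hippo pathway and of microtubules, differed by 0.58 (SE 0.13), with 7.31 to 7.48 in KO and 6.75 to 6.90 in WT. Kif23, a motor of the central spindle in cytokinesis, read 8.68, 7.86 and 8.13 against 7.40, 6.63 and 7.08 (1.19, SE 0.25). Capzb, the beta subunit of the protein that caps actin filaments, read 9.21, 9.12 and 8.84 against 7.43, 8.08 and 7.41 (1.41, SE 0.25). D5Ertd579e differed by 2.17 (SE 0.44). Adjusted p over these 15 genes lay between 0.295 and 0.463 by limma. The first gene outside the choice was Pmm2, a phosphomannomutase of glycosylation, at 1.86 (SE 0.42).

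The promoter of Cish is printed because it alone among the higher genes matched the tonicity-responsive element, and that of Cyb5b because this neighbour of Nfat5 had the lowest p and holds the core of an NFAT site. Slc6a12, the betaine transporter, is shown as a classic NFAT5 target. Each run is 300 bases long, from 250 before to 50 after the start of the gene, 5′ to 3′, from RefSeq on GRCm38.p6. Capitals mark each TGGAAA, the core shared by NFAT sites, in either orientation.
Cyb5b, chr8:107150411-107150710, plus strand: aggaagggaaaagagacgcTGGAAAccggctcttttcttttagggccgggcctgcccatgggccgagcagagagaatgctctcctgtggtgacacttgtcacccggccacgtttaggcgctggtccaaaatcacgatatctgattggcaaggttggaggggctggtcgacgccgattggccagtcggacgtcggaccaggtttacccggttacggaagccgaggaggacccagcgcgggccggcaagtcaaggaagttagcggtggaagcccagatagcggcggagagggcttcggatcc
Cish, chr9:107296409-107296708, plus strand: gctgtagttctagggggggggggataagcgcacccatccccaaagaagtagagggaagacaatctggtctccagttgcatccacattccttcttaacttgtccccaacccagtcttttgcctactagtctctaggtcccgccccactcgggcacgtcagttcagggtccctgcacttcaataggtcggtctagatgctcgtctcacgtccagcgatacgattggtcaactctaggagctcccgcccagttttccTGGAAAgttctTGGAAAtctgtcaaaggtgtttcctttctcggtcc
Slc6a12, chr6:121342324-121342623, plus strand: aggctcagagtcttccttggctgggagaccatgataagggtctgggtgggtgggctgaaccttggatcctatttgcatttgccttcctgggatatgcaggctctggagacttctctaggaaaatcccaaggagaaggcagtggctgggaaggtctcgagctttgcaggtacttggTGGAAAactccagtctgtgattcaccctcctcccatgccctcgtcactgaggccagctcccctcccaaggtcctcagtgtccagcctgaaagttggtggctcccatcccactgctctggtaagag

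Of 15 higher genes 14 had a window, and 3 of them (Cyb5b, Edem2 and Cish) held the core TGGAAA on either strand. Of 15 lower genes 13 had a window, and 2 (Layn and Atp8b5) held it. Over all tested genes with a window the share was 20.1%, and over all 32851 windows it was 21.4%, so the core was about as frequent beside the named genes as elsewhere. The longer tonicity-responsive element was matched in 1 of the 14 higher genes, Cish, in 0 of the 13 lower ones and in 4.55% of tested genes. Cish held 2 such matches, and both of them overlap the STAT motif TTCNNNGAA, which reads alike on both strands and which 8.30% of all windows hold. The Slc6a12 window shown is 1 of 5 for that gene and is the one with a match. Matches describe letters only.

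Among the genes with lower KO values, Mms22l and Layn had the lowest p (adjusted p = 0.295 each by limma). Mms22l, which works with Tonsl in recombination at stalled replication forks, read 7.15, 6.73 and 6.87 in KO and 8.59, 8.004 and 8.20 in WT, a difference of -1.35 (SE 0.20). The gap between the groups exceeded the spread within either. Layn, a membrane lectin that binds hyaluronan, read 6.94, 6.73 and 7.09 against 8.53, 8.13 and 8.01 (-1.30, SE 0.20). The same held for this gene.

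Several of the lower genes serve membranes, the secretory pathway and transport. Slc35b4, a carrier of nucleotide sugars into the Golgi, read 6.52, 5.68 and 6.95 in KO and 7.81, 8.04 and 7.79 in WT (-1.49, SE 0.28). Vps13b, a lipid transfer protein of the Golgi, read 6.08, 7.12 and 6.55 against 8.45, 8.25 and 7.75 (-1.57, SE 0.32). Atp8b5, a flippase that moves phospholipids between leaflets, read 5.17, 5.15 and 4.80 against 6.50, 5.69 and 6.04 (-1.04, SE 0.20). The WT arrays of Slc35b4 were tight and its KO arrays were not, while for Vps13b and Atp8b5 both groups spread. Atp6v0b, a membrane subunit of the proton pump of lysosomes, read 7.83, 7.94 and 8.16 against 8.67, 8.65 and 8.68 (-0.69, SE 0.14), with almost no spread among WT arrays. Nipsnap3b, of a family of vesicle and mitochondrial proteins, read 7.03, 8.01 and 7.50 against 9.13, 9.03 and 8.65 (-1.42, SE 0.32).

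Other lower genes belong to the cytoskeleton, cilium and nucleus. Ttll5, an enzyme that adds glutamate to tubulin, read 7.08, 5.94 and 7.12 in KO and 8.27, 8.41 and 7.96 in WT (-1.50, SE 0.28). Septin2, a filament-forming GTPase, read 8.17, 8.62 and 8.58 against 9.50, 10.04 and 9.48 (-1.21, SE 0.26). Invs, the inversin of the primary cilium, read 5.97, 5.78 and 6.07 against 7.91, 7.13 and 7.53 (-1.58, SE 0.35). The KO array of mouse 11 was lowest for Ttll5 and Invs and highest for Septin2. Foxn3, a forkhead repressor, read 7.09, 7.24 and 6.70 against 8.48, 7.94 and 7.83 (-1.07, SE 0.22). Zfp821, a zinc finger protein, read 4.87, 5.59 and 5.30 against 7.67, 6.72 and 6.31 (-1.65, SE 0.37). Armt1, a carboxyl methyltransferase, had the largest negative difference of the 15 at -1.90 (SE 0.41), with 5.23 to 6.07 in KO and 6.88 to 8.11 in WT. Gnrh1, the gene of gonadotropin-releasing hormone, read 5.78, 6.01 and 6.47 against 7.74, 7.66 and 7.47 (-1.54, SE 0.32), and Ccdc173 differed by -1.06 (SE 0.22). Adjusted p over the 15 lay between 0.295 and 0.471, and the first gene outside the choice was Amelx at -1.06 (SE 0.24).

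**Figure D2:**
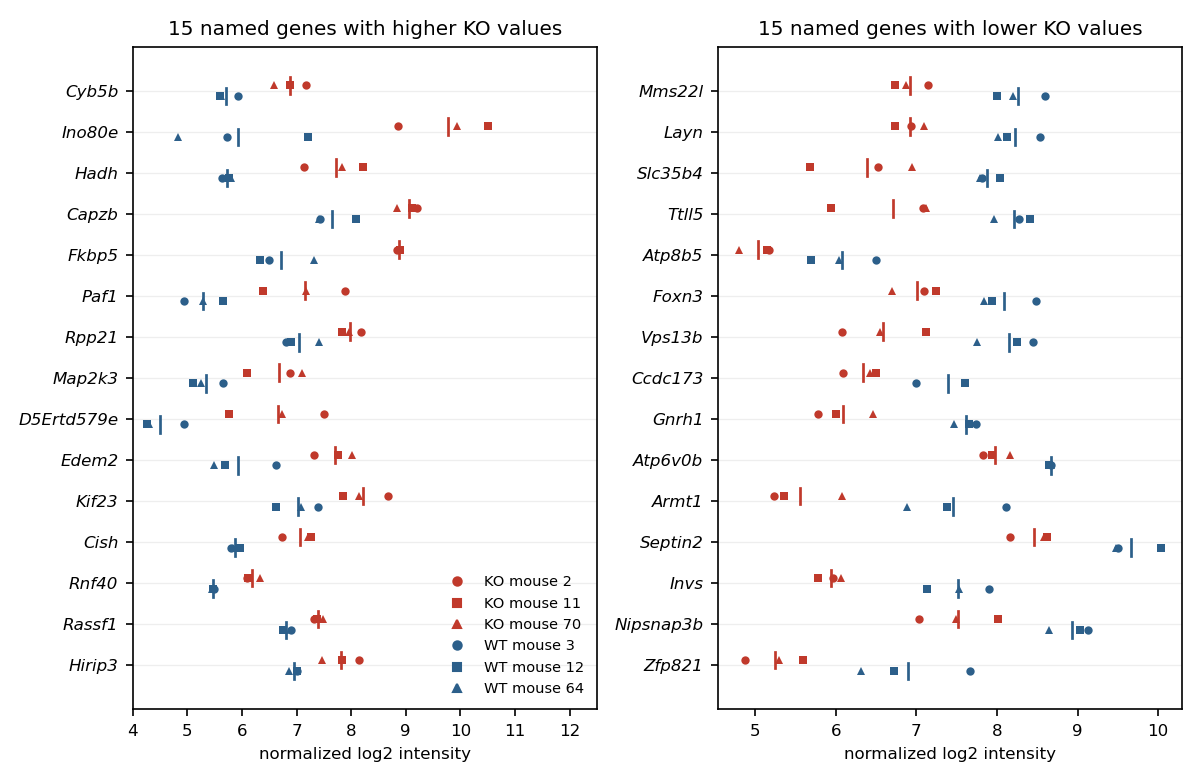
Normalized log2 intensity (horizontal axis) of the 15 genes named as higher (left) and the 15 named as lower (right) in KO HSC, on each KO (red) and WT (blue) array, with 1 symbol per mouse and a vertical bar at each group mean. No group overlaps because the choice required it, and the spread within a group differs from tight (Rnf40, Atp6v0b) to wide (Ino80e, Armt1).

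MPP of the same mice gave a difference for these 30 genes that their choice did not use, although the MPP arrays entered the pooled spread behind each p and the filter on level. The median difference, signed by the direction in HSC, was 0.05 in MPP, where the median absolute difference in HSC was 1.38. The sign was the same for 16 of 30 genes, 7 of the 15 higher and 9 of the 15 lower. MPP arrays did not overlap in the same direction for 3 genes (Cyb5b, Rassf1 and Nipsnap3b), against 9.49% of all genes without overlap in either direction and 3.19% at an unadjusted p under 0.05 in MPP. Cyb5b was 0.40 (SE 0.18) higher in KO MPP, with 7.04, 6.62 and 6.89 against 6.57, 6.35 and 6.41. Nipsnap3b was lower by -1.15 (SE 0.32), and Invs by -1.01 (SE 0.35) with groups that overlapped. Fkbp5 had opposite signs. In MPP it read 8.94, 8.30 and 7.16 in KO and 9.35, 8.85 and 9.26 in WT, a difference of -1.02 (SE 0.40), so that WT HSC were far below WT MPP while KO HSC lay near the highest KO MPP array. For Ino80e the MPP difference was 0.06 (SE 0.65) and for Hadh it was -0.29 (SE 0.34).

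**Figure D3:**
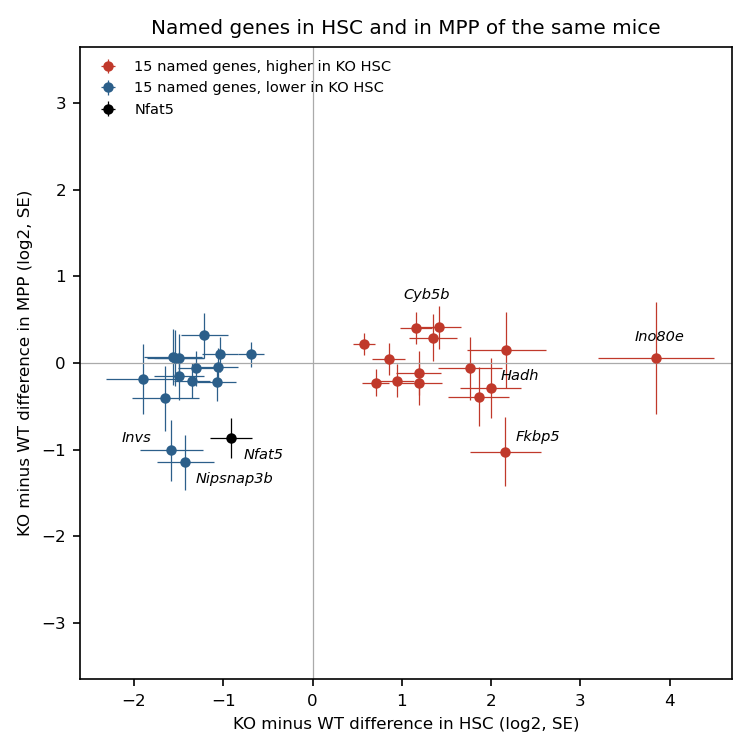
KO minus WT difference (log2) in HSC on the horizontal axis and in MPP of the same mice on the vertical axis for the 30 named genes and Nfat5, with SE bars. Most of the 30 lie near 0 in MPP, Nfat5 lies at -0.91 and -0.87, and Fkbp5 lies at 2.16 and -1.02.

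A direct test asked whether the difference between KO and WT itself differed between HSC and MPP. By limma, 0 of 14620 genes passed (lowest adjusted p 0.884), with 658 (4.5%) at an unadjusted p under 0.05. Of the 30 named genes 27 were among these, which their choice on the HSC difference favours. Nfat5 differed between the populations by -0.04 (SE 0.33). The 5 genes of lowest p on the positive side were Slc25a39, Zdhhc15, Hadh, Fkbp5 and Paf1, and on the negative side Zfp280c, Tgif2, Bcl2, Cd55 and Layn. Bcl2, which blocks the mitochondrial route of cell death, read 7.43, 7.59 and 7.71 in KO HSC and 8.12, 8.75 and 8.29 in WT HSC, a difference of -0.81 (SE 0.19). In MPP it was higher in KO by 0.40 (SE 0.19), with 9.33, 9.15 and 8.98 against 8.55, 8.99 and 8.74. HSC groups did not overlap and MPP groups overlapped narrowly. Slc25a39, the mitochondrial carrier of glutathione, was 0.36 (SE 0.13) higher in KO HSC and -0.56 (SE 0.13) lower in KO MPP, without overlap in either population. The same held for Zdhhc15, a palmitoyltransferase, at 1.01 (SE 0.28) in HSC and -0.86 (SE 0.28) in MPP. Zfp280c, a zinc finger protein, had the opposite order, with -1.37 (SE 0.32) in HSC and 0.77 (SE 0.32) in MPP. For Tgif2, a repressor in TGF-beta signalling, and Cd55, which protects cells from complement, the difference lay in MPP at 1.97 (SE 0.36) and 2.75 (SE 0.57), while in HSC the groups overlapped at -0.33 (SE 0.36) and -0.73 (SE 0.57). The WT HSC array of mouse 64 was the highest for Tgif2 (8.07 against 6.78 to 6.98 on the other HSC arrays) and the lowest for Cd55.

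Gene groups were described by counts and medians, to be read beside the 53.4% of all genes above 0, the median of 0.02, and the 8.87% without overlap. The lists were chosen with earlier results of these data known, several of them around a gene with a large difference. In 48 lists no member passed the adjusted test. The sign of a list's median depended on single arrays for 29 of the 48, where it turned when 1 array was left out, and for 4 it turned under another scaling. Mean levels of a list cover all its members found on the array, also those left out of the test for low values. Levels given below without a named gene cover tested members only. The mean level separated KO from WT arrays in 5 lists. It was higher on all KO arrays in 3 (6.25%: fatty acid oxidation, type I interferon-stimulated genes and lymphoid priming) and lower in 2 (4.17%: NFAT5 osmoadaptive targets, and fork repair with homologous recombination), shares that lie near those of single genes.

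**Figure D4:**
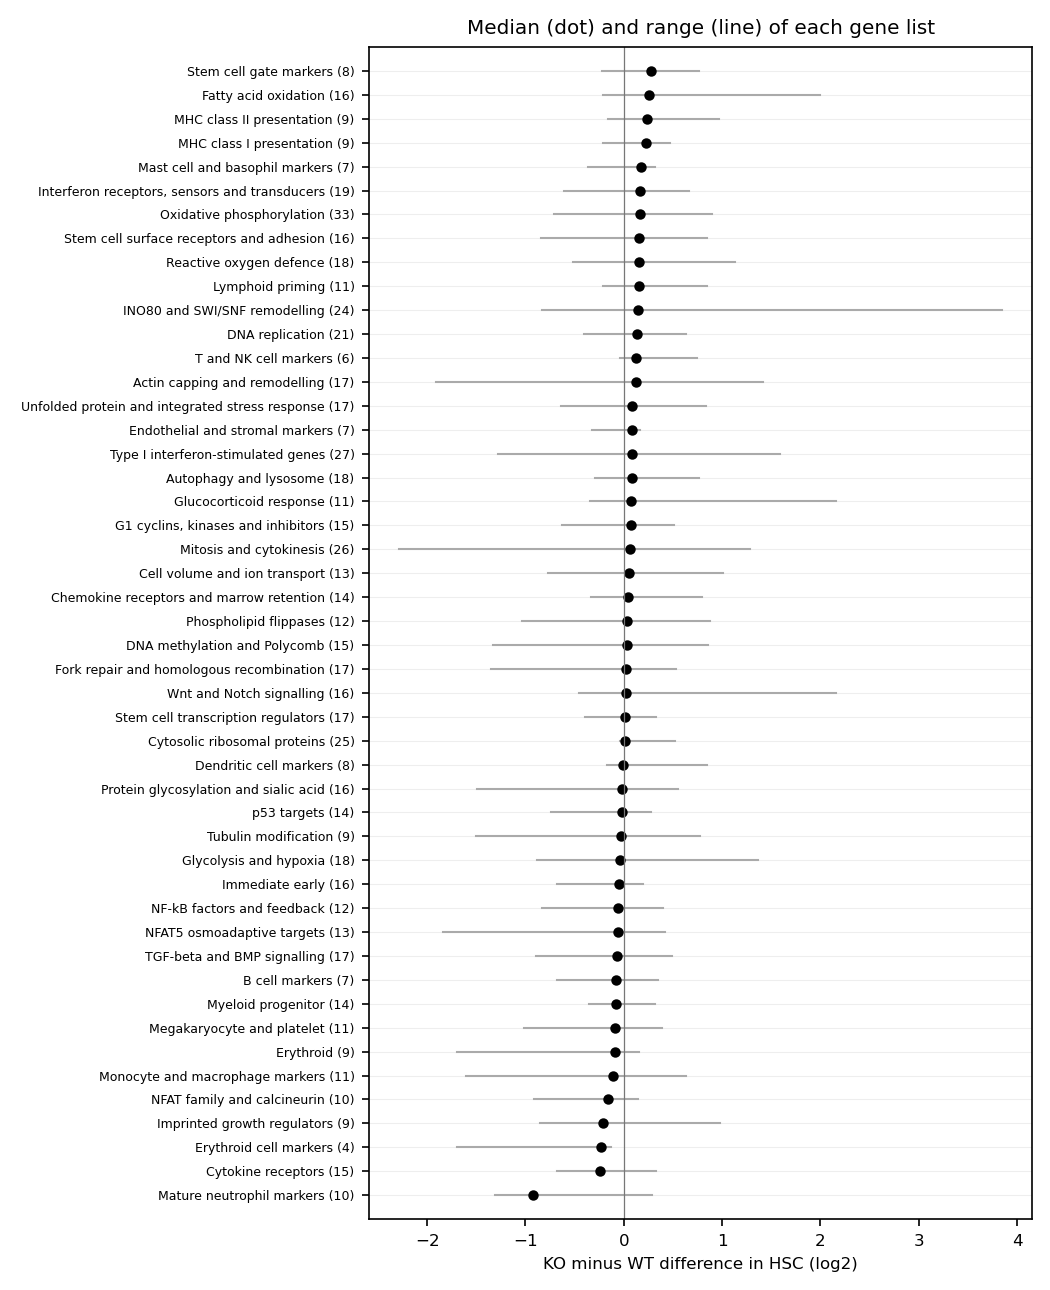
Median (dot) and full range (line) of the KO minus WT difference in HSC (log2, horizontal axis) over the tested members of each of 48 gene lists, with the number tested in brackets. Most medians lie within 0.25 of 0, and that of the mature neutrophil markers, at -0.93, stands apart.

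Of the osmoadaptive targets of NFAT5, 13 were tested, 5 higher and 8 lower in KO HSC, with a median of -0.06. The mean level was 6.35, 6.54 and 6.56 in KO and 6.78, 6.68 and 6.77 in WT. This gap was carried in large part by Slc38a2, the sodium-coupled neutral amino acid transporter SNAT2, which read 6.65, 8.67 and 9.19 against 10.94, 9.60 and 9.49 (-1.84, SE 0.63). Its KO array of mouse 2 lay 2 units below the others, and without that array the difference was -1.08. S100a4, a calcium-binding protein of motile cells, read 7.84, 6.94 and 7.01 against 8.77, 8.46 and 7.86 (-1.10, SE 0.34). KO mouse 2 nearly touched WT mouse 64 there. Hspa1a, an inducible Hsp70, was higher at 6.70, 6.71 and 6.73 against 6.27, 6.17 and 6.45 (0.41, SE 0.16), while its near-identical copy Hspa1b, whose signal such probes may share, stood at 0.06 (SE 0.19). Without Slc38a2 the mean level of the other 12 was 6.32 to 6.37 in KO and 6.43 to 6.54 in WT, with 7 of 12 lower. These 12 still include S100a4, the member with the next largest difference (-1.10). Whether the rest separate the groups without both genes was not examined. Without the KO array of mouse 2 the median of the list was 0.02.

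The transporters of organic osmolytes showed small differences. Slc6a12, whose promoter is given above, read 5.55, 5.02 and 5.17 in KO and 5.18, 5.55 and 5.64 in WT (-0.21, SE 0.18), and Slc6a6, the taurine transporter, stood at 0.06 (SE 0.21). Groups overlapped for both. The phospholipid enzymes that supply glycerophosphocholine and its breakdown were Pnpla6 at -0.23 (SE 0.20) and Gdpd5 at -0.06 (SE 0.17). The chaperones Hspa4l and Hsph1 stood at -0.30 (SE 0.41) and 0.04 (SE 0.53), the kinase Sgk1 at -0.06 (SE 0.22), the hyaluronan synthase Has1 at -0.18 (SE 0.22) and the water channel Aqp2, at 6.16 to 6.59 on all HSC arrays, at 0.10 (SE 0.14). None of these separated the groups. Slc5a3 and Akr1b3 were not analysed here. Of the other NFAT factors and calcineurin genes, 9 in number, 7 were lower and 2 higher, from -0.72 (SE 0.35) for the calcineurin subunit Ppp3cc to 0.15 (SE 0.33) for Nfatc1. All of them had overlapping groups, and the calcineurin inhibitor Rcan1, at 0.02, stood at -0.0036 under scaling to the 75th percentile. Among 13 tested genes of cell volume and ion transport 8 were higher (median 0.06, and -0.10 without KO mouse 2). The lowest p belonged to Slc9a3r1, a scaffold of sodium-hydrogen exchange, which was lower at 6.14, 6.95 and 7.11 against 7.10, 7.79 and 7.63 (-0.78, SE 0.26), with groups that just overlapped and a difference of -0.48 without KO mouse 2. Stk39, a kinase upstream of chloride cotransporters, read 8.86, 9.18 and 9.14 against 7.28, 8.51 and 8.36 (1.01, SE 0.51), and 0.62 without WT mouse 3.

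Fatty acid oxidation genes were higher in KO HSC for 12 of 16 tested members, with a median of 0.26 (0.19 to 0.26 with 1 array left out) and 3 genes without overlap. Besides Hadh these were Eci1, an isomerase for unsaturated fatty acids, at 0.55 (SE 0.19; 6.99, 7.21 and 7.48 against 6.74, 6.80 and 6.49), and Acadvl, the dehydrogenase of very long chains, at 0.38 (SE 0.17; 6.74, 6.15 and 6.17 against 6.01, 6.06 and 5.83). Without KO mouse 2 the difference of Acadvl was 0.19. The mean level was 7.37, 7.47 and 7.40 in KO and 7.17, 7.09 and 7.09 in WT. Without Hadh the groups still did not overlap, at 7.37 to 7.42 against 7.17 to 7.27, with 11 of 15 higher. The list was written around Hadh with earlier results of these data known, so this is a description and no independent support. In MPP the median of the list was 0.05.

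**Figure D5:**
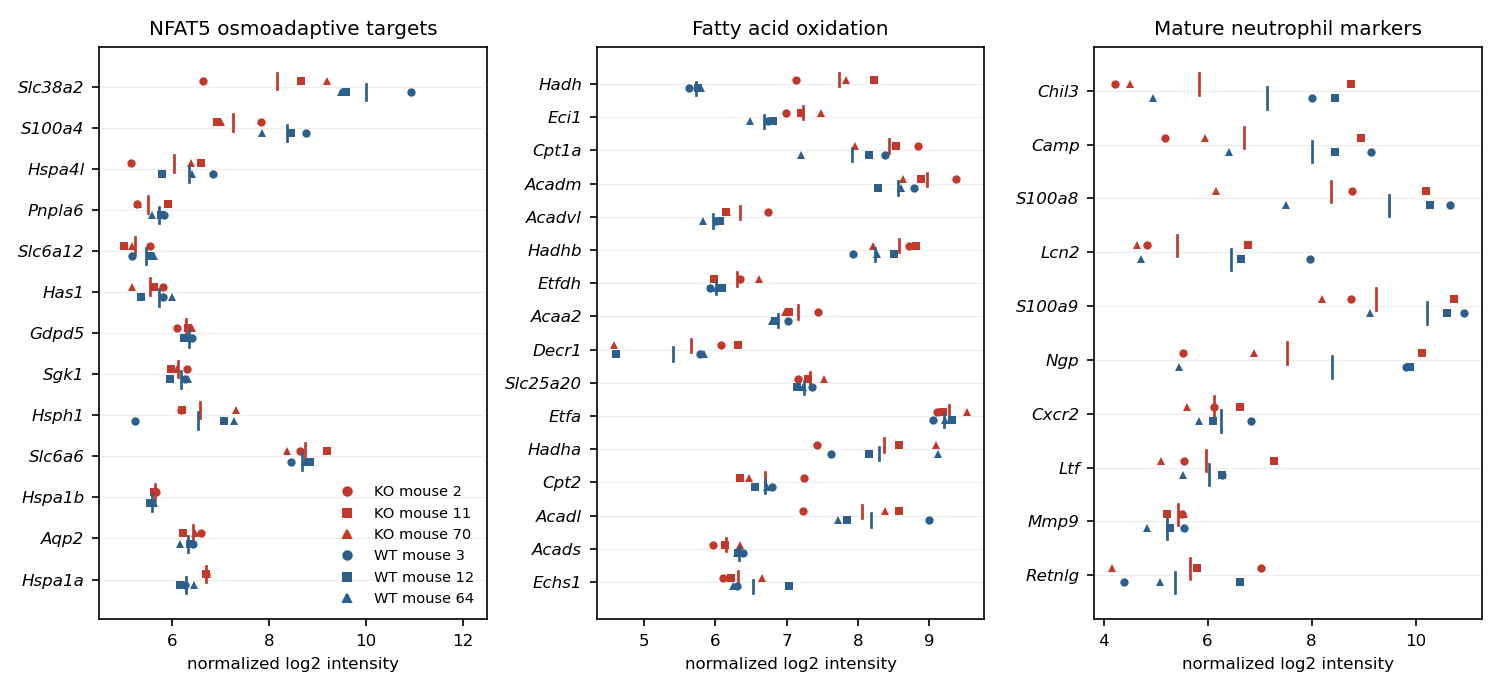
Normalized log2 intensity (horizontal axis) of every tested member of 3 gene lists on the KO (red) and WT (blue) HSC arrays, with 1 symbol per mouse and a bar at each group mean. Slc38a2 and Hadh separate the groups, while neutrophil genes such as Camp and Chil3 read high on KO mouse 11 and WT mice 3 and 12 and low on KO mice 2 and 70 and WT mouse 64.

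Subunits of the respiratory chain and ATP synthase were higher for 26 of 33, with a median of 0.17 (0.06 without WT mouse 64), and their mean level overlapped (9.15, 9.07 and 9.07 against 8.90, 9.08 and 8.80). The member of lowest p went the other way. Sdhb, the iron-sulfur subunit of complex II, read 7.65, 8.43 and 8.36 against 8.94, 8.95 and 8.69 (-0.71, SE 0.22). Cox5a of complex IV read 9.39, 9.52 and 9.14 against 7.90, 8.85 and 9.26 (0.68, SE 0.28), with overlap, and 0.30 without WT mouse 3. Uqcrb of complex III stood at 0.42 (SE 0.20) and Ndufs3 of complex I at 0.33 (SE 0.16). Genes of defence against reactive oxygen were higher for 14 of 18 (median 0.15, and 0.03 without WT mouse 64). Prdx3, the peroxiredoxin of mitochondria, read 7.76, 8.40 and 7.69 against 5.50, 7.65 and 7.33 (1.13, SE 0.47), and was 0.46 without WT mouse 3. Gclc, the rate-limiting enzyme of glutathione synthesis, read 7.63, 7.92 and 7.93 against 7.43, 7.21 and 7.25 (0.53, SE 0.21), and Cat, catalase, 9.52, 9.13 and 8.89 against 8.68, 8.63 and 8.67 (0.52, SE 0.24). These groups did not overlap. For glycolysis and hypoxia 8 of 18 were higher (median -0.04), and the glucose transporter Slc2a1, at 1.36 (SE 0.79), was 0.50 without WT mouse 64, which read 5.47.

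Around Ino80e, 14 of 24 tested genes of the INO80 and SWI/SNF remodellers were higher (median 0.14, and 0.06 without WT mouse 3), and 4 were without overlap. Ino80c, another INO80 subunit, read 7.07, 7.37 and 7.18 against 6.55, 6.62 and 6.97 (0.49, SE 0.21), and Yy1, the zinc finger factor that recruits INO80, stood at 0.69 (SE 0.29) with overlap. Ino80d was lower at -0.83 (SE 0.29; 7.10, 8.41 and 7.50 against 8.38, 8.72 and 8.40). Subunits of 1 complex thus lay on both sides. Among genes of DNA methylation and Polycomb, 8 of 15 were higher (median 0.03). Tet1, which oxidises methylcytosine, was lower at 6.86, 6.65 and 6.59 against 7.71, 8.41 and 7.96 (-1.33, SE 0.39), and was lower in KO MPP too (-0.93). Uhrf1, which brings Dnmt1 to newly copied DNA, read 9.30, 8.65 and 8.35 against 8.21, 8.27 and 8.14 (0.56, SE 0.22). Suz12, a core subunit of Polycomb complex 2, stood at -0.90 (SE 0.39) and the DNA methyltransferase Dnmt3b at -0.74 (SE 0.33), both with overlap.

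Type I interferon-stimulated genes were higher for 17 of 27 (median 0.08, and 0.02 without WT mouse 64). Groups did not overlap for 2 higher genes (Isg15, and Oas2 at 0.85) and 2 lower ones. Isg15, a ubiquitin-like modifier, read 7.24, 8.48 and 6.81 against 5.70, 6.73 and 5.46 (1.55, SE 0.45). Oasl2, of the oligoadenylate synthetase family, read 9.14, 8.58 and 8.17 against 6.75, 6.21 and 8.18 (1.59, SE 0.50), with groups that just overlapped. Parp12, a mono-ADP-ribosyltransferase, went the other way at 6.78, 7.19 and 6.95 against 9.04, 8.01 and 7.72 (-1.28, SE 0.36), as did Samd9l at -0.48 (SE 0.16). Parp12 and Isg15 had opposite signs in MPP (0.77 and -0.75). The mean level of the list was 7.31, 7.40 and 7.30 against 7.25, 7.25 and 7.15. Over the 26 tested members without Oasl2, and so without the untested Oasl1 too, it did not separate the groups. Interferon receptors, sensors and transducers were higher for 12 of 19 (median 0.17, and 0.04 without WT mouse 64). Irf1, an interferon-induced factor, stood at 0.40 (SE 0.22), with KO mouse 2 and WT mouse 3 nearly equal. Irf3, the factor downstream of nucleic acid sensors, had the lowest p of that list and was lower at 5.70, 5.98 and 5.62 against 6.32, 6.45 and 6.34 (-0.61, SE 0.26). Class I presentation genes were higher for 8 of 9 (median 0.22, and 0.07 without KO mouse 2) and class II genes for 6 of 9 (median 0.24, and 0.12 without KO mouse 70), all with overlap. H2-Eb1, a class II chain, stood at 0.76 (SE 0.32). WT mouse 64 had the lowest level for both lists, as for 18 of the 48 lists.

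Genes that define stem cells lay on both sides of 0. Transcription regulators were higher for 9 of 17, with a median of 0.01 and a range from -0.39 to 0.33. That median was -0.01 under scaling to the 75th percentile and -0.02 after a second quantile normalization. It was -0.15 without WT mouse 64 and 0.10 without WT mouse 12. Surface receptors and adhesion molecules were higher for 11 of 16 (median 0.16), from -0.85 to 0.85. Of these 16, 5 had an unadjusted limma p under 0.05, against 6.29% of all genes tested. The list was chosen with earlier results of these data known, so this count is a description only. Tie1, a receptor tyrosine kinase of endothelial and stem cells, read 6.74, 6.76 and 6.43 against 5.98, 6.16 and 6.13 (0.55, SE 0.17) without overlap. Fgd5, a marker of the most primitive HSC, stood at 0.72 (SE 0.27) and Cd34, a sialomucin low on long-term mouse HSC, at 0.63 (SE 0.24), both with overlap. Esam was lower at 6.84, 6.82 and 6.79 against 7.20, 8.78 and 7.01 (-0.85, SE 0.36), and by -0.29 without WT mouse 12. Genes close to the sort, Fgd5 among them, were higher for 6 of 8, all with overlap. Their median was 0.28 (0.13 to 0.51 with 1 array left out). Slamf1 stood at -0.02 (SE 0.34), Cd48 at -0.22, Kit at 0.08 (SE 0.26), Mecom at 0.26, Tek at 0.30 and Hlf at 0.31. Procr stood at 0.76 (SE 0.43; 5.48, 6.51 and 7.42 against 5.97, 5.78 and 5.37), or 0.29 without KO mouse 70. Lymphoid priming genes were higher for 9 of 11 (median 0.15, and 0.07 without KO mouse 2), led by the receptor Flt3 at 5.94, 5.09 and 6.88 against 5.03, 5.39 and 4.95 (0.85, SE 0.37), and 0.39 without KO mouse 70. Over the 10 tested members without Flt3 the mean level was still 5.92 to 6.04 in KO against 5.78 to 5.88 in WT. In MPP the median of that list was -0.15. Of the imprinted growth regulators 6 of 9 were lower (median -0.21, and -0.25 without Ndn). Ndn itself, linked to HSC quiescence, lay on the other side and read 7.57, 7.32 and 7.45 against 6.53, 5.94 and 6.93 (0.98, SE 0.26).

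Cell division genes had no common direction. In mitosis and cytokinesis 16 of 26 were higher (median 0.06, and -0.18 without KO mouse 11), and besides Kif23 only Ccnb2, a mitotic cyclin, was without overlap at 0.34 (SE 0.14). Bub1b and Bub1, kinases of the spindle checkpoint, had large negative differences of -2.28 (SE 1.02) and -1.62 (SE 0.73) that rested on KO mouse 2. It read 5.23 and 5.24 there, against 8.01 to 11.42 and 8.46 to 9.57 on the other HSC arrays, and without it the differences were -1.02 and -0.49. DNA replication genes were higher for 13 of 21 (median 0.13, and 0.03 without WT mouse 64). Fork repair genes were higher for 9 of 17 (median 0.03, and -0.12 without KO mouse 70). Their mean level separated the groups over 19 members, with the untested Rad51c and Fancc included. Fancc read 6.22 on WT mouse 12 and 3.93 to 4.43 on the other HSC arrays. Over the 16 tested members without Mms22l the groups overlapped, at 6.18 to 6.43 in KO and 6.28 to 6.42 in WT. That level leaves out all 3 genes, so the loss of separation cannot be laid on Mms22l alone. Actin regulators were higher for 11 of 17 (median 0.12) with 5 without overlap on both sides of 0, and the median was -0.03 without WT mouse 3. Against Capzb stood Spire1, an actin nucleator, at 7.18, 7.25 and 6.47 against 9.34, 8.85 and 8.43 (-1.91, SE 0.55), Diaph1, a formin, at -0.54 (SE 0.22), and Arpc5, a subunit of the Arp2/3 complex, at -0.49 (SE 0.17).

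Markers of other cell types, 8 in all, were read as a check of the sort. Mature neutrophil markers had a median of -0.93 (2 of 10 higher), the farthest from 0 of all lists, but none separated the groups. Their mean level, which includes the untested Mmp8, was 6.08, 7.66 and 5.53 in KO and 7.83, 7.55 and 5.74 in WT. It was thus high on 1 KO and 2 WT arrays and low on the others, and the median was -0.23 without WT mouse 3 and -1.72 without KO mouse 11. Camp, an antimicrobial peptide of granules, read 5.18, 8.96 and 5.95 against 9.14, 8.45 and 6.41, and S100a9, a calcium-binding protein abundant in neutrophils, 8.75, 10.74 and 8.20 against 10.94, 10.61 and 9.12. Fewer cells of a type and less RNA per cell cannot be told apart in such bulk samples. The part of these transcripts in the differences above was not tested. Medians of the other lists were -0.11 for monocytes and macrophages, -0.08 for B cells, 0.12 for T and NK cells, -0.23 for erythroid cells, 0.09 for endothelial and stromal cells, -0.005 for dendritic cells and 0.17 for mast cells and basophils. Ly6c2, a monocyte antigen, read 5.32, 5.41 and 6.61 against 7.44, 8.34 and 6.36 (-1.60, SE 0.61), and Nkg7, a granule protein of cytotoxic lymphocytes, 6.38, 6.95 and 6.71 against 5.90, 5.75 and 6.17 (0.74, SE 0.20).

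Within the gene order of the GRCm38.p6 annotation, some of the named genes lie side by side. Cyb5b is the neighbour of Nfat5 itself on chromosome 8, with 0 tested genes between them, and Zfp821 follows with 12 between. The pair Ino80e and Hirip3 on chromosome 7 are neighbours too, also with 0 between, and both were higher in KO. Cish and Rassf1 on chromosome 9 had 5 tested genes between them, and Invs and Nipsnap3b on chromosome 4 had 10. How often genes lie this close by their order alone was not tested.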

How the data were processed

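RNA of sorted HSC and MPP (3 KO and 3 WT mice, 1 array of each population per mouse) was amplified from 300 pg by a NuGEN method and labelled with biotin, per the labels' protocols. The authors deposited log2 values per probe set, and the submitters' processing notes name RMA and limma. Tool versions were not given in the sources used here. As a method, RMA forces 1 distribution on all arrays, so a shift of the whole transcriptome would be removed.

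Of 22142 probe sets, 19527 had 1 gene symbol, 0 had several and 2615 had none. The probe set of highest mean stood for a gene (19494 genes, 33 with several), and the 25% of lowest mean (4874 genes, below 4.96) were left out, leaving 14620. 1 limma model of 4 group means over the 12 arrays (limma 3.58.1 and statmod 1.5.0 in R 4.3.3) gave KO against WT in HSC, in MPP and their interaction, two-sided, with Benjamini-Hochberg adjustment and a threshold of 0.05. The scripts were tested on simulated data. Lists were described by counts and medians, without a test. The text names the 15 genes per direction of lowest p with an absolute difference of at least 0.5 and no overlap, 5 per direction for the interaction, up to 4 of lowest p per list, all members of the NFAT5 target list, and 3 per direction below the level limit; other names were chosen after their values were seen. Members and lists were chosen with earlier results of these data known. HSC and MPP arrays were paired by the mouse number that their sample titles share. The r of their deviations across genes was 0.0345 to 0.0892, which does not by itself show the pairing. KO and WT HSC come from different mice. Promoter windows were RefSeq's.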

Additional observations from a re-analysis of the deposited data

Results flagged for a closer look

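Genes in the lowest 25% of mean value were not tested above, though members of lists entered the mean levels of those lists. Among those whose HSC groups did not overlap, the 3 largest positive differences were listed because they are signals outside the genes tested. H3c1, a core histone gene, was 1.80 higher in KO, but this came from KO mouse 2 alone, at 8.21 against 3.77 and 4.35 on the other KO arrays and 3.55 to 3.74 in WT. Fam166a was 1.20 higher (5.28, 5.91 and 5.48 against 4.52, 4.34 and 4.21). Pde6g, an inhibitory subunit of a phosphodiesterase, was 1.19 higher (4.65, 3.93 and 5.32 against 3.56, 3.31 and 3.47). In the limma fit without a filter on level, over 19494 genes, none of the 3 passed, with adjusted p of 0.855, 0.675 and 0.653.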

How the results depend on the processing

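Across the other filters, normalizations, variance settings, weights, the fit of only the 6 HSC arrays and the fit with the mouse as a replicate block, 0 genes passed by limma (lowest adjusted p 0.246), with 668 to 1148 at an unadjusted p under 0.05. With 1 array left out, 0 to 1 genes passed. The 1 gene was Epn1 (2.73, adjusted p = 0.0143) without KO replicate 11, and Ccdc136 (-3.21, adjusted p = 0.042) without KO replicate 70, both named after their values were seen; the cause was not tested. Counts at an unadjusted p under 0.05 were then 846 to 1060. The replicate block (consensus correlation 0.0723) gave 911 such genes and 744 for the interaction, against 473 to 815 over the other settings, and changed no call. Nfat5 stayed between -1.08 and -0.72, with adjusted p of 0.392 to 0.998. The 30 genes named by p kept their sign under every setting run, which their choice largely fixed. Groups without overlap cannot turn when 1 array is left out, and filters and variance settings leave a difference unchanged.

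Differences near 0 turned with a left-out array, within these ranges: Rcan1 -0.41 to 0.61 (-0.051 under array weights, -0.0036 under scaling to the 75th percentile), Hsph1 -0.61 to 0.41, Hspa4l -0.59 to 0.14, Tgif2 -0.58 to 0.070, Slamf1 -0.37 to 0.42, Slc6a6 -0.18 to 0.24, Sgk1 -0.17 to 0.016, Gdpd5 -0.13 to 0.028, Nfatc1 -0.11 to 0.36 and Kit -0.10 to 0.19. The cause was not tested. Of the other genes named, 38 kept their sign but moved toward 0 by over 1.5 times without 1 array. Where not given above, the values were 0.29 for Uhrf1, -0.25 for Diaph1, 0.45 for Itgb2, 0.39 for H2-Eb1, -0.55 for Ino80d and -0.46 for Sdhb without KO mouse 2, 0.40 for Atp11a, 0.45 for Yy1, -0.54 for Tgfbr1, -0.47 for Ppp3cc and -0.32 for Rela without KO mouse 70, 0.44 for Rbpj and -0.47 for Dnmt3b without WT mouse 3, -0.38 for Tgfb1 and -0.39 for Cd55 without WT mouse 12, and 0.30 for Fzd7 without KO mouse 11. The same held for Camp, Chil3, S100a9, Slc6a12, Pnpla6, Has1, Hspa1b, Aqp2 and Cd48. The table carries no detection calls, so which weak transcripts lay above background was not determined, and the median SE was 0.19, 0.24 and 0.28 in 3 equal classes of mean level, from low to high.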

Other observations

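Signalling genes of stem cells showed single members with large differences inside lists whose medians lay near 0, apart from that of the cytokine receptors. In Wnt and Notch signalling 8 of 16 tested genes were higher (median 0.02). Ryk, a Wnt receptor, read 9.45, 7.93 and 7.69 in KO and 6.38, 7.02 and 5.19 in WT, a difference of 2.16 (SE 0.49), and -0.25 in MPP. The receptor Fzd7 stood at 0.48 (SE 0.20) and the Notch effector Rbpj at 0.79 (SE 0.34), both with overlap. In TGF-beta and BMP signalling 10 of 17 were lower (median -0.06). Tgfb1, the ligand that holds HSC quiescent, read 6.73, 7.36 and 7.02 against 7.37, 7.98 and 7.46 (-0.56, SE 0.24), the receptor Tgfbr1 stood at -0.89 (SE 0.41) and the transducer Smad5 at -0.86 (SE 0.39). Cytokine receptors were lower for 11 of 15 (median -0.24, but -0.01 without KO mouse 70). Among chemokine receptors and retention genes, 7 of 14 higher, Itgb2, the beta chain of leukocyte integrins, read 7.23, 6.09 and 6.28 against 5.68, 5.67 and 5.86 (0.80, SE 0.30).

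Stress and housekeeping lists lay near 0. In the glucocorticoid response, apart from Fkbp5, 6 of 10 genes were higher with a median of 0.06, and Tsc22d3, the induced leucine zipper GILZ, stood at 0.41 (SE 0.31), or 0.07 without KO mouse 70. Of unfolded protein and integrated stress genes 10 of 17 were higher (median 0.09, and -0.12 without WT mouse 3), and the kinase Eif2ak3 was lower at 6.73, 6.40 and 6.86 against 7.68, 6.88 and 7.34 (-0.64, SE 0.26). For autophagy and lysosome 12 of 18 were higher (median 0.08), with Foxo3 at 0.32 (SE 0.15). Of NF-kB factors and feedback genes 8 of 12 were lower (median -0.06, and 0.04 without WT mouse 64), and Rela, a transactivating subunit, read 7.86, 7.53 and 7.16 against 7.78, 8.004 and 8.27 (-0.50, SE 0.21). Immediate early genes were lower for 10 of 16 (median -0.05), p53 targets for 8 of 14 (median -0.02). The phospholipid flippases Atp11a (0.63, SE 0.20) and Atp8a1 (0.88, SE 0.37) lay opposite to Atp8b5 and to Atp10a (-0.63, SE 0.24).

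Below the level limit the largest negative differences without overlap were those of AI182371 (-1.94), Sh3d19 (-1.91) and Socs6 (-1.62), with adjusted p of 0.739, 0.739 and 0.754 in the limma fit without that limit. The Sh3d19 difference came from WT mice 3 and 12, at 5.14 and 6.43. WT mouse 64, at 3.029, lay barely above the highest KO array, at 3.022. The share of genes at an unadjusted p under 0.05 was 3.88%, 6.73% and 8.25% in 3 equal classes of mean level, from low to high. Of 1775 probe sets without a gene symbol above the limit, 90 (5.07%) reached it and 147 (8.28%) did not overlap.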
